A study of Sus scrofa with 40 samples.

Results

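Kinesins are motor proteins that walk along microtubules, and 37 of the 38794 gene rows in the count tables carry a kinesin symbol made of KIF with a number, or KIFC with a number. All 37 rows stand in both tables, and the choice goes by symbol alone. Grouped by role, 13 are spindle and division kinesins, 16 are transport kinesins and 8 are kinesins of cilia or of other functions. KIFC1, KIF17, KIF9 and KIF26A are not analysed here. CENPE and STARD9 belong to the kinesin family under other names and are given beside the 37.

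Oocytes of pigs were classed by their mitochondrial DNA (mtDNA) as deficient or normal, and RNA sequencing of pools and of single cells addressed how the states differ. All were mature cells at metaphase II, from commercial hybrid animals of the Large White, Duroc and Berkshire breeds. The groups were 5 mtDNA-deficient pools, 6 mtDNA-normal pools, 14 mtDNA-deficient single oocytes and 15 mtDNA-normal single oocytes. Pools were extracted with a Picopure column and amplified with the Ovation V2 and Ultralow kits, and single oocytes were lysed in the tube and prepared with the SoLo kit and a pig-specific depletion primer mix. Titles of single oocytes carry BCBneg in the deficient state and BCBpos in the normal state, and titles of pools carry neg and pos. The labels do not spell out BCB, and they do not give the number of oocytes in a pool or the animals behind a library. Counts of single oocytes with the same state and the same leading number in the title were added up, giving 4 deficient sums (numbers 1 to 4) and 3 normal sums (numbers 2 to 4). The meaning of that number is not stated, and a sum held 2 to 7 oocytes.

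A kinesin uses the energy of ATP to step along a microtubule, most towards the plus end and a few towards the minus end. Some push, bundle or shorten the microtubules of the spindle and finish cell division, while others carry organelles such as mitochondria and endosomes. In a metaphase II oocyte the spindle is held ready for fertilisation, transcription is largely silent, and most transcripts were stored during growth.

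The files give no gene lengths, so differences in level are described between samples for each gene. Levels of different genes were ranked or set against a threshold to choose and group genes, without correction for length. Levels are given as CPM, the count of a gene scaled to a library total of 1000000 counts. Totals per library were 14480546 to 29538982 counts in pools and 706929 to 3067523 in single oocytes, and sums held 2481027 to 9105127. One uncharacterised gene, LOC102158401, took 46.7% to 76.0% of the counts of a single oocyte and 0.00312% to 0.0275% of those of a pool, and both CPM and totals include it. The 12 oocyte markers, such as GDF9 and BMP15, summed to 5979 to 12880 CPM in deficient pools and 5783 to 11970 CPM in normal pools. Of 18 cumulus and granulosa markers, 7 had enough counts to be tested in pools, namely INHBA, VCAN, KITLG, GATM, STAR, PTGS2 and FST. INHA, AMH, AMHR2, FOXL2 and LHCGR had no count in any pool. The whole list summed to 88.1 to 219 CPM in deficient pools and 117 to 180 CPM in normal pools. Detected genes numbered 14207 to 18456 in deficient pools and 15057 to 19245 in normal pools.

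Most kinesin genes were detected in both library types. Of the 37, 25 had a count in every pool, 7 averaged under 1 CPM with at least 1 count, and 5 had no count in any pool. KIF1A and KIF5A, known as neuronal transport motors, and KIF25 had no count in any library. A count of 0 over all pools allows a level of up to 0.0116 CPM, and a count of 0 over all single oocytes allows up to 0.0728 CPM (3 counts of the summed totals, counting error only). KIF19 and KIFC2 had no count in pools and 1 and 3 counts over all single oocytes. In single oocytes, 15 of the 37 were counted in all 29 cells, among them KIF23, KIF15, KIF2A, KIF24 and KIF13B.

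**Figure D1:**
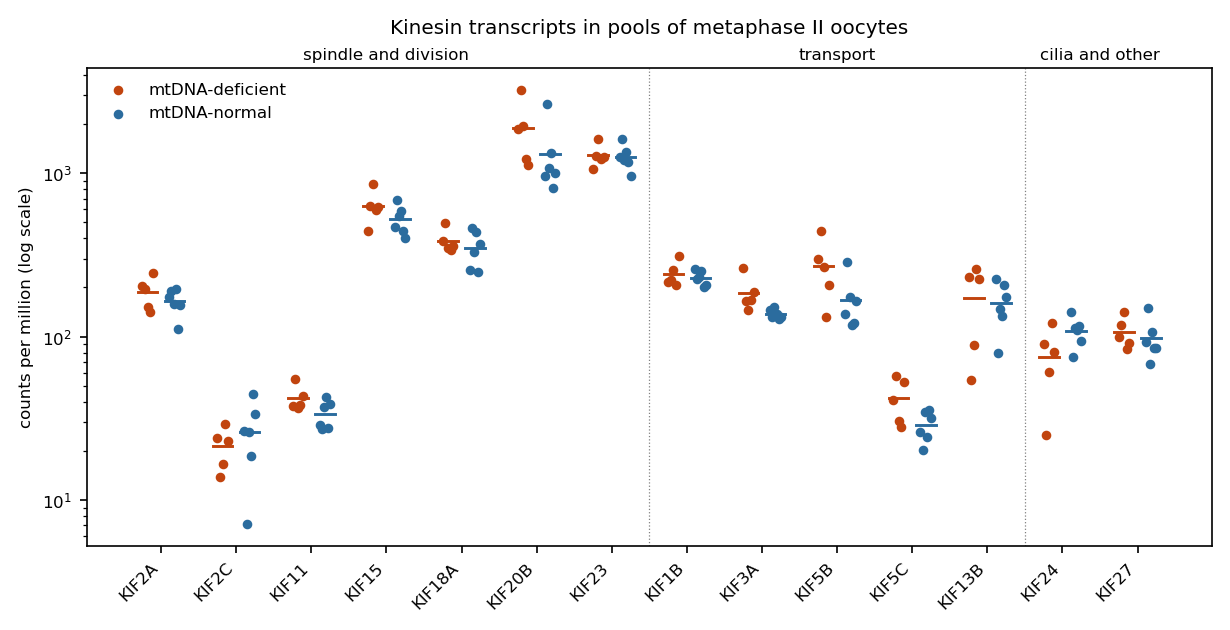
Level of 14 described kinesin genes in pools, in CPM on a log axis, grouped by role. Each point is 1 pool (5 mtDNA-deficient, left; 6 mtDNA-normal, right) and each short line the group mean. The points of the states overlap for every gene shown.

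No kinesin passed the test between the states in pools. With edgeR's quasi-likelihood test, adjusted by Benjamini-Hochberg over 13540 genes, 0 of 26 tested kinesins had an adjusted p under 0.05, and the share called among all genes was 0%. At an unadjusted p under 0.05 edgeR gave 3 kinesins, with 5.36% of all genes. DESeq2 called 0 kinesins and 0.207% of all genes, with 4 kinesins and 7.25% of all genes at an unadjusted p under 0.05. limma-voom called 0 kinesins and 0% of all genes, with 4 kinesins and 5.47% of all genes at an unadjusted p under 0.05. The kinesin log2 differences, deficient minus normal, were above 0 for 17 of 26 with a median of 0.17. Over all genes tested, 49.83% were above 0 and the median was -0.0019. The other 11 kinesins were too low to be tested.

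Among the spindle motors, KIF11 pushes the poles apart by sliding antiparallel microtubules and is needed to build a bipolar spindle. It measured 37.9, 55.1, 36.9, 38.4 and 43.3 CPM in the deficient pools A1, A2, A3, B2 and B4. In the normal pools its lowest, median and highest values were 27.3, 33.0 and 42.9 CPM. Every deficient pool lay above the normal median, the highest was deficient A2, and the ranges overlapped. The log2 difference was 0.50 (SE 0.24, edgeR p = 0.0593, adjusted p = 0.921), and it was 0.27 without deficient A2.

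KIF15, which backs up KIF11 in keeping the spindle bipolar, measured 446, 628, 860, 596 and 626 CPM in the deficient pools A1, A2, A3, B2 and B4. The normal pools spanned 403 to 681 CPM with a median of 507. Deficient A3 was the highest and normal B4 the lowest of the 11, and the states overlapped. The log2 difference was 0.39 (SE 0.27, edgeR adjusted p = 0.921), with 0.22 without deficient A3 and 0.60 without normal A3.

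KIF2A and KIF2C shorten microtubules at their ends, KIF2A mainly at spindle poles and KIF2C at centromeres. KIF2A measured 204, 196, 153, 142 and 244 CPM in the deficient pools A1, A2, A3, B2 and B4, and 111 to 197 CPM in the normal pools. KIF2C measured 24.2, 13.8, 16.7, 29.1 and 22.96 CPM in the deficient pools A1, A2, A3, B2 and B4, against 26.5, 7.15, 26.1, 18.6, 44.7 and 33.9 CPM in the normal pools A2, A3, A4, B1, B2 and B4. Neither difference exceeded the spread between pools, with log2 values of 0.30 (SE 0.24) for KIF2A and -0.11 (SE 0.31) for KIF2C and edgeR adjusted p of 0.921 and 0.971. KIF2C had both its lowest and its highest value in normal pools, A3 and B2, and its log2 difference was 0.0573 without normal B2. That of KIF2A was 0.18 without normal B2 and 0.46 without normal A3.

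KIF18A limits the swing of chromosomes at metaphase, and its relative KIF18B trims astral microtubules. KIF18A measured 386, 493.1, 348, 338 and 356 CPM in the deficient pools A1, A2, A3, B2 and B4, against 248, 349 and 465 CPM at the lowest, median and highest of the normal pools. The states overlapped, and the log2 difference of 0.25 (SE 0.28) was 0.0340 without deficient A2 and 0.47 without normal A3. KIF18B was low, at 0.186, 1.17, 1.5, 0.469 and 1.89 CPM in the deficient pools A1, A2, A3, B2 and B4, against 1.86 to 5.39 CPM in normal pools. Only deficient B4 reached into the normal range for KIF18B, by a few hundredths of a CPM. Its log2 difference of -1.29 (SE 0.64) did not pass the test (edgeR p = 0.0624, adjusted p = 0.921), on 4 to 43 counts per deficient pool.

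KIF23, the motor subunit of the centralspindlin complex that organises the midzone, was close to level across states. It measured 1065, 1279, 1614, 1222 and 1249 CPM in the deficient pools A1, A2, A3, B2 and B4, and 963 to 1629 CPM with a median of 1232 in normal pools. The log2 difference was 0.14 (SE 0.25, edgeR adjusted p = 0.957), with 0.0168 without deficient A3 and 0.35 without normal A3. The coefficient of variation of KIF23 over the 11 pools was 0.158, beside 0.144 for KIF4A, a chromosome-bound motor that also limits midzone length, and 0.190 for KIF20A, which brings the chromosomal passenger complex to the midzone. These 3 motors of the midzone thus varied over pools by less than 0.2 of their mean.

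KIF20B, which acts late in cytokinesis, varied far more, with a coefficient of variation of 0.498. It measured 1858, 3249, 1938, 1229 and 1128 CPM in the deficient pools A1, A2, A3, B2 and B4. The normal pools A2, A3, A4, B1, B2 and B4 measured 959, 2652, 1075, 1333, 809 and 1010 CPM. Deficient A2 and normal A3 stood highest, each apart from its own group. For KIF20B the fitted log2 value was 0.63 (SE 0.43, edgeR adjusted p = 0.921). It was 1.15 (adjusted p = 0.381) without normal A3 and 0.20 without deficient A2.

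CENPE is the kinetochore motor that brings chromosomes to the plate, and the pools high for KIF20B were high for it too. It measured 813, 1362, 529, 451 and 450 CPM in the deficient pools A1, A2, A3, B2 and B4, against 214, 791, 343, 344, 242 and 315 CPM in the normal pools A2, A3, A4, B1, B2 and B4. All 5 deficient pools were above every normal pool except normal A3. Its log2 difference was 1.05 (SE 0.46, edgeR p = 0.0360, adjusted p = 0.903), and it was 1.61 (adjusted p = 0.304) without normal A3 and 0.53 without deficient A2.

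Of the remaining spindle kinesins, KIF14 and KIF22 also showed no called difference. KIF14, which works with the citron kinase in cytokinesis, averaged 80.8 ± 27.4 CPM in deficient pools and 89.8 ± 26.3 CPM in normal pools (SD, n = 5 and 6). KIF22, which pushes chromosome arms away from the poles, averaged 2.27 ± 1.75 CPM in deficient pools and 3.32 ± 2.25 CPM in normal pools. KIF2B was too low to be tested, with 5 counts over the deficient pools and 57 over the normal pools.

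Of the 26 kinesins tested by symbol in pools, the transport kinesins KIF3A, KIF5C and KIF5B had the smallest unadjusted p values, and CENPE, outside that symbol rule, lay between KIF5C and KIF5B. None passed adjustment over all genes. Of 9 transport kinesins tested, 8 had a log2 difference above 0, with a median of 0.21, beside 49.83% of all genes above 0. In sums of single oocytes 4 of 9 were above 0, with a median of -0.013. The 16 transport kinesins summed to 856 to 1127 CPM in deficient pools and 730 to 878 CPM in normal pools, ranges that overlap.

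KIF3A pairs with KIF3B or KIF3C and the adaptor KIFAP3 in the motor that also drives intraflagellar transport. It measured 262, 165, 145, 169 and 187 CPM in the deficient pools A1, A2, A3, B2 and B4, and 128, 135 and 152 CPM at the lowest, median and highest of the normal pools. Deficient A3 alone lay within the normal range, and deficient A1 was far above the others. For KIF3A the log2 difference was 0.55 (SE 0.19, edgeR p = 0.0113, adjusted p = 0.874), and it was 0.42 to 0.63 with any single pool left out. Within pools titled A it was 0.52, and within pools titled B it was 0.49.

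The partner KIF3B averaged 21.9 ± 10.1 CPM in deficient pools and 22.5 ± 9.96 CPM in normal pools, with a log2 difference of 0.08 (SE 0.32). The adaptor KIFAP3 had a log2 difference of 0.07 (SE 0.32). KIF3C gave 14 counts over the deficient pools and 30 over the normal pools and was not tested. KIF3B and KIFAP3 thus lay near 0 beside the 0.55 of KIF3A, and the contrast between these genes was not tested.

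KIF5B and KIF5C are heavy chains of conventional kinesin, which carries mitochondria and other cargo, KIF5B in most cells and KIF5C mainly in neurons. KIF5B measured 298, 445, 267, 132 and 206 CPM in the deficient pools A1, A2, A3, B2 and B4, against 137, 286, 176, 118, 121 and 165 CPM in the normal pools A2, A3, A4, B1, B2 and B4. Deficient A2 was highest, normal A3 stood above the other normal pools, and deficient B2 lay among the normal pools. For KIF5B the log2 difference was 0.83 (SE 0.38, edgeR p = 0.0463, adjusted p = 0.921). It was 1.22 (adjusted p = 0.334) without normal A3 and 0.44 without deficient A2.

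KIF5C measured 41.1, 57.4, 30.6, 28.2 and 52.9 CPM in the deficient pools A1, A2, A3, B2 and B4. Its lowest, median and highest values in normal pools were 20.4, 29.1 and 35.4 CPM. Deficient A1, A2 and B4 were above every normal pool, while A3 and B2 were not. For KIF5C the log2 difference was 0.74 (SE 0.26, edgeR p = 0.0114, adjusted p = 0.874), with 0.87 within pools titled A and 0.50 within pools titled B, and the value was 0.49 without deficient A2.

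KIF1B, which carries mitochondria and vesicles, varied least of the kinesins that averaged at least 100 CPM, with a coefficient of variation of 0.137 over the 11 pools. It measured 216, 222, 257, 207 and 311 CPM in the deficient pools A1, A2, A3, B2 and B4, and 202 to 258 CPM in normal pools, with a log2 difference of 0.21 (SE 0.20) that was 0.13 without normal B2. KIF13B, an endosome and polarity-protein motor, measured 233, 54.1, 88.4, 259 and 225 CPM in the deficient pools A1, A2, A3, B2 and B4. The normal pools A2, A3, A4, B1, B2 and B4 measured 225, 79.2, 147, 134, 207 and 176 CPM for KIF13B. Deficient A2, normal A3 and deficient A3 were its 3 lowest pools, and its log2 difference of 0.19 (SE 0.30) turned below 0 in the pools titled A alone, at -0.15. It was 0.0396 without deficient B2 and 0.39 without deficient A2.

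**Figure D2:**
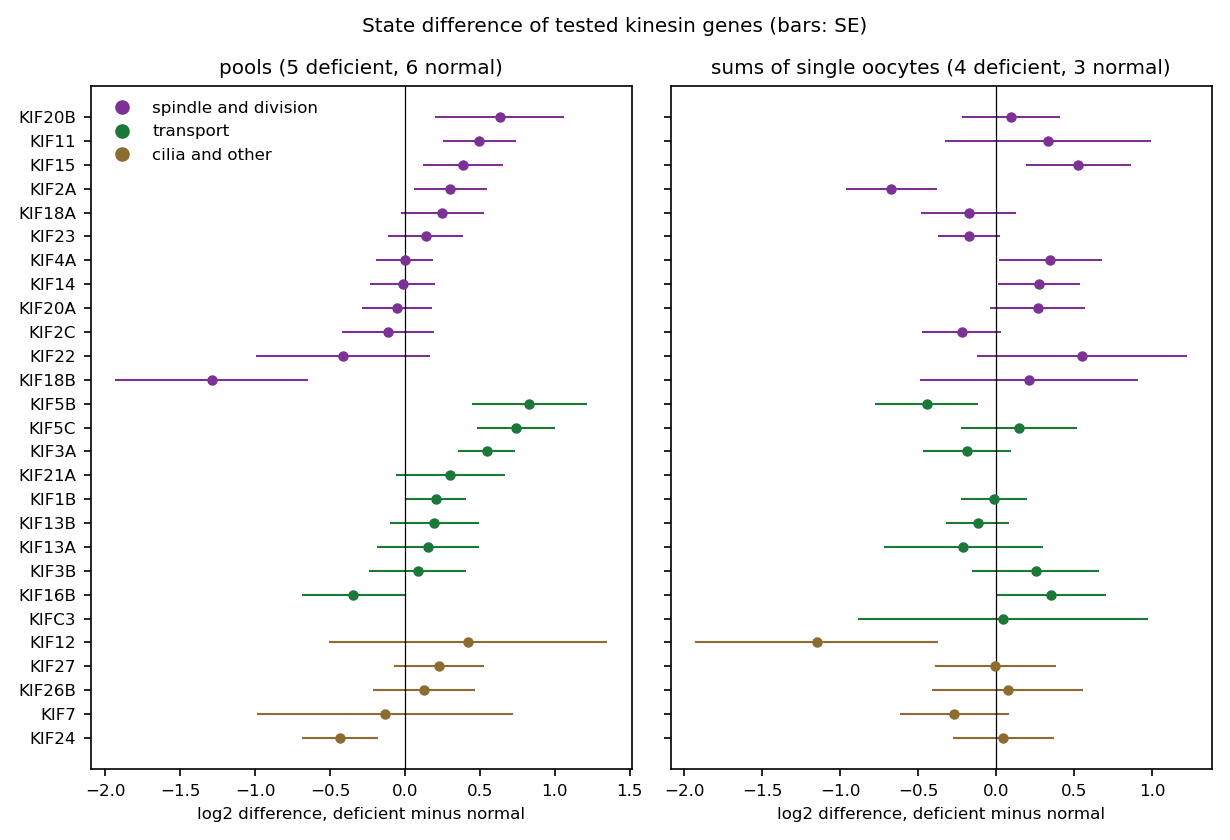
Log2 difference, mtDNA-deficient minus mtDNA-normal, of each tested kinesin gene in pools (left panel) and in sums of single oocytes (right panel), with bars of 1 standard error, coloured by role. In pools KIF5B, KIF5C and KIF3A lie at 0.83, 0.74 and 0.55, and in sums at -0.45, 0.15 and -0.19; no gene passed the adjusted threshold in either panel.

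Among kinesins of cilia and other functions, KIF24 shortens microtubules at the mother centriole and holds back cilium formation. It measured 90.1, 25.2, 60.7, 121 and 81.0 CPM in the deficient pools A1, A2, A3, B2 and B4, against 75.4, 111 and 141 CPM at the lowest, median and highest of the normal pools. Deficient A2 was the lowest of all 11, and deficient B2 lay above the normal median. For KIF24 the states differed by -0.43 on the log2 scale (SE 0.25, edgeR adjusted p = 0.921), with -0.79 within pools titled A, -0.03 within pools titled B and -0.24 without deficient A2. KIF27, linked to motile cilia, measured 99.8, 118, 141, 84.3 and 91.5 CPM in the deficient pools A1, A2, A3, B2 and B4, against 68.5, 89.2 and 151 CPM at the lowest, median and highest of the normal pools. Its log2 difference of 0.23 (SE 0.30) was 0.0866 without deficient A3 and 0.54 without normal A3.

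The low members of the cilia and other group, KIF7, KIF12 and KIF26B, did not differ beyond the spread between pools. KIF7, a Hedgehog regulator at the cilium tip, averaged 1.77 ± 1.45 CPM in deficient pools and 2.16 ± 2.39 CPM in normal pools. KIF12 measured 0.0931, 0.345, 0.882, 0.547 and 1.06 CPM in the deficient pools A1, A2, A3, B2 and B4, and 0 to 1.13 CPM in normal pools, on at most 31 counts. KIF26B averaged 6.16 ± 0.776 CPM in deficient pools and 6.43 ± 2.77 CPM in normal pools.

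**Figure D3:**
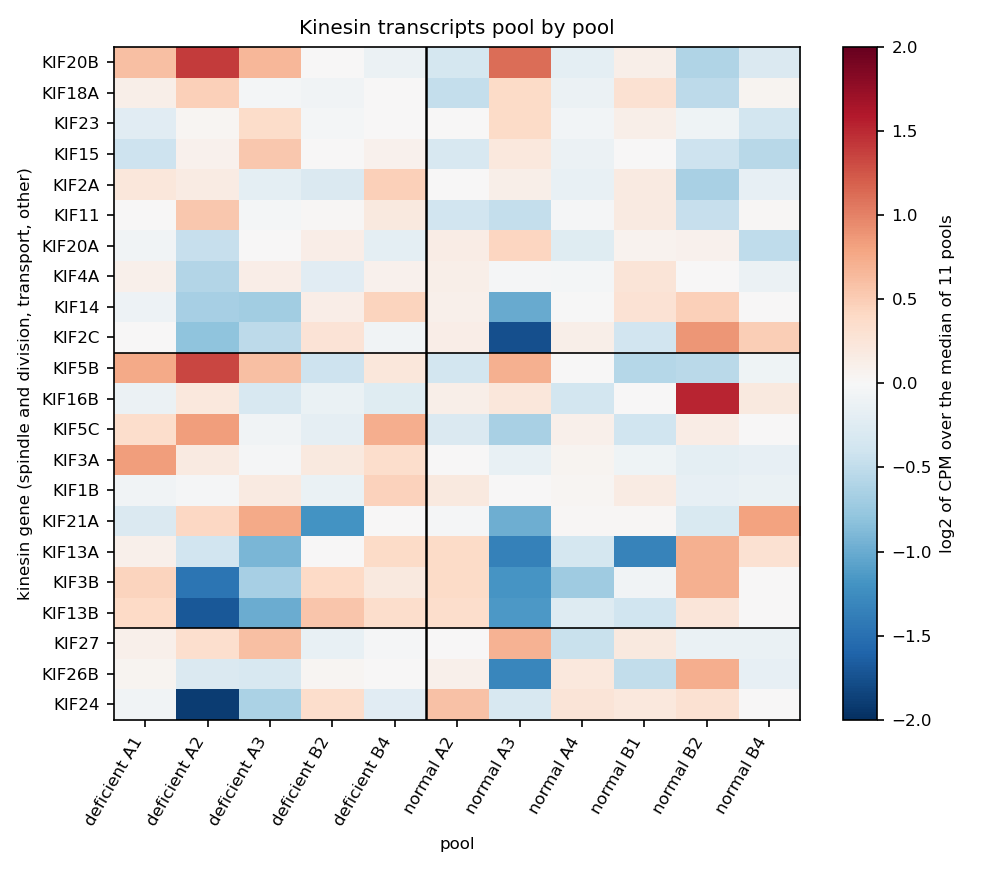
Each tested kinesin averaging at least 5 CPM in pools (rows, by role) in each of the 11 pools (columns, mtDNA-deficient left of the vertical line and mtDNA-normal right of it), as log2 of CPM over the gene's median across pools. Deficient A2, and normal A3 in the other state, are red for KIF20B and KIF5B and blue for KIF13B, KIF3B, KIF2C and KIF24.

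Across pools the kinesins split in a way the states did not follow. Deficient A2 and normal A3, the pools with fewest detected genes in their state (14207 and 15057), were high for KIF20B, KIF5B and CENPE and low for KIF13B, KIF24, KIF3B and KIF2C. KIF3B measured 8.29 CPM in deficient A2 and 10.04 CPM in normal A3, its 2 lowest pools. BMP15, 1 of the 12 oocyte markers, was also low there, at 897 CPM in deficient A2 and 724 CPM in normal A3. It had 4409 CPM in deficient B2 and 4542 CPM in normal B2, and the other oocyte markers are not described pool by pool. Deficient A3 and B4 detected 16169 and 16184 genes, with KIF13B at -0.99 and 0.36 as log2 of CPM over its median across pools. Whether the number of detected genes has a part in the kinesin levels was not tested. The 6 theca and stroma markers summed to 3.53 to 7.46 CPM in deficient pools and 6.62 to 12.4 CPM in normal pools. Of these, 2 had enough counts to be tested, COL1A2 and DCN, while CYP17A1 and LUM were at 0 in all pools. The part of these markers in the kinesin values was not tested. In pools, fewer cells carrying a transcript and less of it per cell cannot be told apart.

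In sums of single oocytes, too, no kinesin passed the test between the states. edgeR called 0 of 26 tested kinesins over 11964 genes, where the share called among all genes was also 0%. At an unadjusted p under 0.05 edgeR gave 1 kinesin, KIF2A, with a background of 1.93%. DESeq2 called 0 kinesins and 0.0167% of all genes, and limma-voom called 0 of both. With the shared title number as a replicate block, over the 6 sums of shared number, edgeR called 0 kinesins and 0.0166% of all genes. That fit leaves out deficient sum 1. At an unadjusted p under 0.05 the blocked fit gave 1 of 28 kinesins, beside 384 of 12059 genes. That kinesin was KIF15 (edgeR p = 0.0111) in place of KIF2A (p = 0.0867). Without the block, the same 6 sums gave 0 kinesins at an unadjusted p under 0.05, beside 230 of 12059 genes. The kinesin log2 differences were above 0 for 14 of 26, with a median of 0.04. Over all genes tested, 49.72% were above 0 and the median was -0.0018. No kinesin separated the states without overlap, in the sums or in the pools, where the shares of all tested genes that did so were 3.73% and 0.598%.

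**Figure D4:**
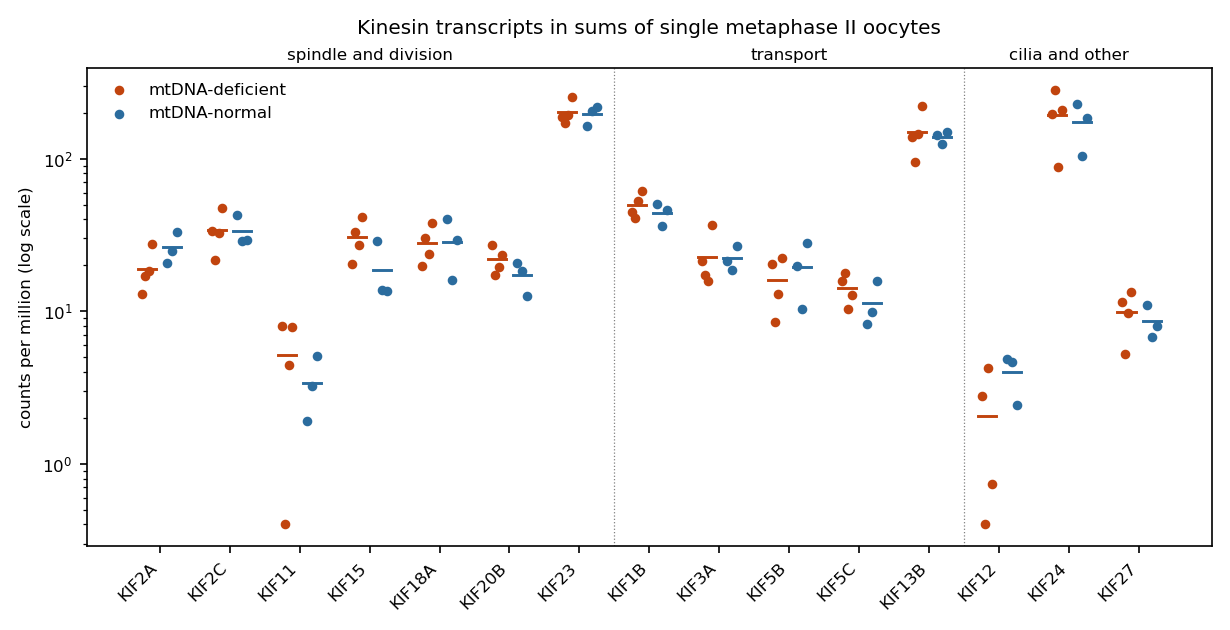
Level of 15 described kinesin genes in sums of single oocytes, in CPM on a log axis, grouped by role. Each point is 1 sum (4 mtDNA-deficient, left; 3 mtDNA-normal, right) and each short line the group mean. KIF2A lies lower in most deficient sums and KIF15 higher, and the states overlap for both.

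KIF2A measured 12.9, 16.9, 18.4 and 27.4 CPM in deficient sums 1 to 4 and 20.8, 24.8 and 33.3 CPM in normal sums 2 to 4. Deficient sums 1, 2 and 3 lay under every normal sum and deficient sum 4 lay between normal sums. KIF2A had a log2 difference of -0.67 (SE 0.29, edgeR p = 0.0358, adjusted p = 1.00). It was -0.51 with the replicate block, a fit that also leaves out deficient sum 1. Taken by the date in the column name, with each oocyte as a sample, the difference was -1.21 on 17 September and -0.11 on 22 September. Neither passed adjustment in edgeR, and both are a description, as oocytes are not replicates of a state.

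Levels of KIF2A per oocyte are given by date, also as a description. Those of 17 September had a median of 12.9 CPM in 8 deficient oocytes (2.42 to 20.6) and 24.9 CPM in 9 normal oocytes (14.3 to 37.9). Those of 22 September had a median of 28.6 CPM in 6 deficient oocytes (2.99 to 67.1) and 25.9 CPM in 6 normal oocytes (5.06 to 53.3). The later date held the widest spread and a median slightly higher in deficient oocytes.

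KIF15 measured 20.6, 33.1, 27.2 and 41.2 CPM in deficient sums 1 to 4 and 28.7, 13.8 and 13.6 CPM in normal sums 2 to 4. Only normal sum 2 lay among the deficient sums. The log2 difference was 0.53 (SE 0.34, edgeR p = 0.136, adjusted p = 1.00). It was 0.78 with the replicate block over the 6 sums of shared number (edgeR adjusted p = 0.999). The unblocked value was 0.26 without normal sum 4 and 0.91 without normal sum 2. KIF15 was higher in the deficient sum of all 3 same-numbered pairs, and KIF2A was lower in all 3. The share of all genes with the same direction in all 3 pairs was not computed. With each oocyte as a sample the log2 difference of KIF15 was 0.68, with 0.77 on 17 September and 0.55 on 22 September. These values are a description, as oocytes are not replicates of a state. Per oocyte, KIF15 averaged 33.4 ± 11.9 CPM in 14 deficient oocytes and 17.6 ± 8.43 CPM in 15 normal oocytes (SD), and oocytes may share an animal.

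The share of LOC102158401 was 46.7% to 70.7% in deficient oocytes and 56.2% to 76.0% in normal oocytes, and its part in these CPM was not tested. Of 12 spindle and division kinesins tested in sums, 8 had a log2 difference above 0 and 4 below, beside 49.72% of all genes above 0. KIF4A and KIF14, chosen after their values were seen, had the same direction in CPM as KIF15. KIF4A averaged 25.1 ± 8.98 CPM in deficient oocytes and 14.9 ± 7.56 CPM in normal oocytes, and KIF14 averaged 31.98 ± 13.6 CPM in deficient oocytes and 22.8 ± 10.02 CPM in normal oocytes. These averages are a description, as oocytes are not replicates of a state. Over the sums neither KIF4A (log2 0.35, SE 0.33) nor KIF14 (0.28, SE 0.26) passed the test, with edgeR adjusted p of 1.00 for both.

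KIF11 was near the limit of counting in single oocytes. It measured 8.01, 0.403, 4.42 and 7.84 CPM in deficient sums 1 to 4 and 1.91, 3.26 and 5.05 CPM in normal sums 2 to 4. Deficient sum 2 rested on 1 count, and the deficient sums stood on both sides of the normal ones. Its log2 difference was 0.34 (SE 0.66, edgeR adjusted p = 1.00) and turned to -0.16 with the replicate block, a fit that also leaves out deficient sum 1. The unblocked value was 0.0572 without normal sum 2 and 0.66 without deficient sum 2. KIF11 was counted in 13 of 14 deficient oocytes and 11 of 15 normal oocytes, with a median of 5 counts over all 29.

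KIF23 and KIF24 were well covered, with at least 422 and 521 counts in every sum. KIF23 measured 189, 170, 193 and 253 CPM in deficient sums 1 to 4 and 164, 205 and 217 CPM in normal sums 2 to 4, so the states overlapped, with deficient sum 4 above and normal sum 2 below all sums of the other state. KIF24 measured 196, 284, 88.6 and 209 CPM in deficient sums 1 to 4 and 228, 105 and 186 CPM in normal sums 2 to 4. For KIF24 the sums numbered 3 were lowest and those numbered 2 highest in both states.

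The date in the column name moved with that order of KIF24. Oocytes of 22 September, which make up the sums numbered 2, ranged from 152 to 311 CPM with a median of 249 (n = 12, both states). Those of 17 September, which make up the sums numbered 1 and 3, ranged from 56.7 to 199 CPM with a median of 162 (n = 17), and sum 1 of that date had 196 CPM. The sums numbered 4 hold both dates. What the date stands for is not stated in the labels.

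The transport kinesins of smallest p in pools took other values in the sums. KIF3A measured 21.3, 17.3, 15.8 and 36.9 CPM in deficient sums 1 to 4 and 21.4, 18.6 and 26.9 CPM in normal sums 2 to 4. KIF5B measured 20.6, 8.46, 12.9 and 22.4 CPM in deficient sums 1 to 4 and 19.7, 10.4 and 28.1 CPM in normal sums 2 to 4. For both KIF3A and KIF5B the sums of the states interleaved.

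KIF5C measured 15.7, 17.7, 10.4 and 12.9 CPM in deficient sums 1 to 4 and 8.28, 9.90 and 15.8 CPM in normal sums 2 to 4. The log2 differences in sums were -0.19 for KIF3A (SE 0.28), -0.45 for KIF5B (SE 0.33) and 0.15 for KIF5C (SE 0.37), each with an edgeR adjusted p of 1.00. Without single sums KIF3A ran from -0.38 (without deficient 4) to -0.0683 (without deficient 3), KIF5B from -0.65 (without normal 3) to -0.23 (without normal 4), and KIF5C from -0.10 (without deficient 2) to 0.29 (without normal 4).

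The remaining kinesins of high level in a library type overlapped between states in the sums. KIF13B measured 138, 95.5, 146 and 221 CPM in deficient sums 1 to 4 and 142, 125 and 149 CPM in normal sums 2 to 4. KIF1B measured 44.6, 41.1, 52.4 and 61.1 CPM in deficient sums 1 to 4 and 50.1, 36.1 and 46.1 CPM in normal sums 2 to 4. Deficient sum 4 was highest for both of these transport motors. KIF2C measured 33.4, 21.8, 32.7 and 47.4 CPM in deficient sums 1 to 4 and 42.9, 29.1 and 29.1 CPM in normal sums 2 to 4. KIF18A measured 19.9, 30.2, 23.6 and 37.98 CPM in deficient sums 1 to 4 and 40.1, 15.9 and 29.3 CPM in normal sums 2 to 4. Normal sums held both the highest and the lowest value of KIF18A. KIF20B measured 27.2, 17.3, 19.6 and 23.4 CPM in deficient sums 1 to 4 and 20.8, 18.4 and 12.5 CPM in normal sums 2 to 4. KIF27 measured 11.5, 5.24, 9.70 and 13.4 CPM in deficient sums 1 to 4 and 11.04, 6.77 and 8.02 CPM in normal sums 2 to 4.

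KIF12 measured 2.79, 0.403, 4.25 and 0.735 CPM in deficient sums 1 to 4 and 4.88, 4.64 and 2.42 CPM in normal sums 2 to 4. Deficient sums 2 and 4 were lowest, on 1 and 6 counts. Its log2 difference of -1.15 (SE 0.78, edgeR p = 0.159, adjusted p = 1.00) did not pass the test and ran from -1.958 without deficient sum 3 to -0.79 without deficient sum 4. KIF18B, described above for pools, measured 9.06, 0, 14.8 and 10.7 CPM in deficient sums 1 to 4 and 2.34, 7.65 and 9.01 CPM in normal sums 2 to 4.

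The state difference itself was then compared between library types by an interaction term over the 11 pools and 7 sums. edgeR called 0 of 30 tested kinesins, and the share called among all 17643 genes was 0%. At an unadjusted p under 0.05 it gave 3 kinesins, with 5.32% of all genes. DESeq2 called 0 kinesins and 0.00567% of all genes, and limma-voom called 0 of both. The 3 were KIF2A at -0.99 (SE 0.40, p = 0.0214, adjusted p = 0.886), KIF5B at -1.29 (SE 0.56, p = 0.0304, adjusted p = 0.904) and KIF3A at -0.74 (SE 0.33, p = 0.0357, adjusted p = 0.904), all on the log2 scale as sums minus pools in edgeR. In each of the 3 the deficient minus normal difference was above 0 in pools and below 0 in sums.

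The motors' partners showed no called state difference either. Among 14 spindle partners, 14 cargo and adaptor genes and 16 dynein and dynactin genes with a row, edgeR called 0 in pools, with 1, 0 and 1 at an unadjusted p under 0.05 in the 3 lists where 5.36% of all genes had one. In sums it called 0, with 0, 1 and 0 at an unadjusted p under 0.05, beside 1.93% of all genes. In pools, the log2 difference was 1.04 for HAUS6, a subunit of the augmin complex (SE 0.41, edgeR adjusted p = 0.903), and -1.09 for INCENP, a scaffold of the passenger complex carried by KIF20A (SE 0.57, adjusted p = 0.921). The dynein light intermediate chain DYNC1LI1 had 1.65 (SE 0.69) and the light chain DYNLL1 had -0.35 (SE 0.17), while BICD2, a dynein adaptor, had 0.49 (SE 0.31) and PLEKHM2, which links lysosomes to kinesin, had -1.11 (SE 0.73).

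In sums, TRAK2, the adaptor that joins conventional kinesin to mitochondria, measured 13.2, 17.7, 15.1 and 15.2 CPM in deficient sums 1 to 4 and 5.94, 5.39 and 9.45 CPM in normal sums 2 to 4. Each deficient sum lay above every normal sum, where 3.73% of all genes tested separated the sums without overlap in either direction. TRAK2 had a log2 difference of 1.00 (SE 0.37, edgeR p = 0.0162, adjusted p = 1.00), so it did not pass over all genes. In pools TRAK2 spanned 8.43 to 32.1 CPM in deficient libraries and 10.3 to 35.5 CPM in normal libraries, ranges that overlap. The kinetochore gene SPC25 had a log2 difference of -0.88 (SE 0.43) in sums, the spindle pole gene NUMA1 0.50 (SE 0.33), DYNLL1 -0.43 (SE 0.22) and DYNLRB1 -0.83 (SE 0.54).

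Library type, in contrast, set most kinesin levels apart. In single-oocyte sums against pools, edgeR called 25 of 30 tested kinesins, 8 higher and 17 lower in sums, where 67.8% of all genes were called, 35.2% higher and 32.5% lower. The kinesins had a median log2 difference of -0.95, beside 0.13 over all genes tested. Of the called, KIFC3 among the higher failed the filter on low counts in pools alone, KIF21A among the lower failed it in sums alone, and KIF3C failed it in each alone, so the filter bears on their calls. The split moved with the scaling. Kinesins were 11 higher and 14 lower with DESeq2, where all genes were 42.5% higher and 26.6% lower. They were also 11 and 14 with DESeq2's size factors in edgeR (42.1% and 26.1% of all genes), 10 and 15 with limma-voom (38.8% and 29.3%), and 6 and 17 with no normalization factors (27.8% and 38.2%). The median over all genes moved to 0.60 with DESeq2's size factors and to -0.36 with none. Extraction, amplification kit, depletion primers, depth and the number of oocytes all change with library type and cannot be told apart.

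**Figure D5:**
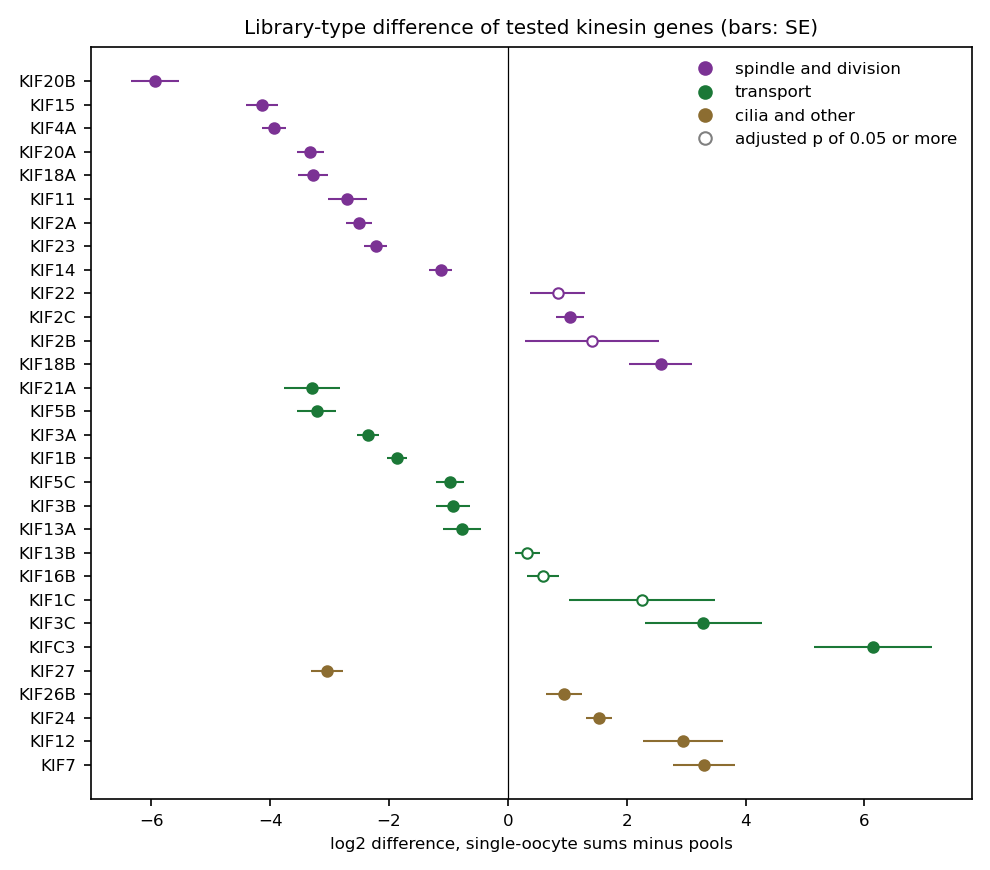
Log2 difference, single-oocyte sums minus pools, of the 30 tested kinesin genes with bars of 1 standard error, coloured by role. Filled points passed an adjusted p of 0.05 and open points did not; KIF20B lies lowest at -5.94, and KIFC3, with 9 counts over all pools, highest at 6.15.

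Of the 13 spindle and division kinesins, 9 were called lower in sums and 2 higher, beside 32.5% and 35.2% of all genes. KIF20B measured 12.5 to 27.2 CPM over the 7 sums with a median of 19.6, against 809 to 3249 CPM over the 11 pools with a median of 1229. In the fit, which scales libraries by TMM, it was 61.4-fold lower in sums (log2 -5.94, SE 0.41, edgeR adjusted p = 6.63e-12). CENPE moved likewise, at 4.94 to 14.2 CPM in sums and 214 to 1362 CPM in pools (log2 -5.24, SE 0.46). No sum came near any pool for KIF20B or CENPE.

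The other lowered spindle motors were 2.19-fold to 17.7-fold lower in sums in the same fit, whose folds are smaller than the ratios of mean CPM. KIF15 was at 13.6 to 41.2 CPM in sums and 403 to 860 CPM in pools (log2 -4.14, SE 0.27). KIF4A averaged 18.9 ± 7.17 CPM in sums and 384 ± 55.3 CPM in pools (log2 -3.94, SE 0.21). KIF11 averaged 4.41 ± 2.85 CPM in sums and 37.6 ± 8.08 CPM in pools, and was 6.52-fold lower in the fit (log2 -2.70, SE 0.33).

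KIF20A (log2 -3.33, SE 0.23), KIF18A (-3.28, SE 0.26), KIF2A (-2.51, SE 0.22), KIF23 (-2.23, SE 0.20) and KIF14 (-1.13, SE 0.19) complete the lowered spindle motors. Their edgeR adjusted p values ran up to 1.37e-05, the one of KIF14. Close relatives went apart: the microtubule depolymerase KIF2C was higher in sums where KIF2A was lower, and KIF18B was higher where KIF18A was lower.

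KIF2C measured 21.8 to 47.4 CPM in sums and 7.15 to 44.7 CPM in pools, overlapping ranges, and was higher in sums by 1.05 on the log2 scale (SE 0.23, edgeR adjusted p = 0.000309), a call lost with no normalization factors (0.52). KIF18B averaged 7.64 ± 5.01 CPM in sums and 2.11 ± 1.55 CPM in pools (log2 2.57, SE 0.54, edgeR adjusted p = 0.000174). KIF22 (0.84, SE 0.47) and KIF2B (1.42, SE 1.12) were not called.

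Of 12 transport kinesins tested, 7 were called lower in sums and 2 higher, beside 32.5% and 35.2% of all genes. KIF21A, among these 7, entered the comparison through the pools, so its values are a description. It averaged 1.58 ± 1.72 CPM in sums and 22.1 ± 8.93 CPM in pools (log2 -3.29, SE 0.47). KIF5B averaged 17.5 ± 7.12 CPM in sums and 214 ± 102 CPM in pools, and its fitted level was 9.31-fold lower (log2 -3.22, SE 0.33), and KIF3A averaged 22.6 ± 7.25 CPM in sums and 160 ± 38.5 CPM in pools, with a fitted level 5.14-fold lower (log2 -2.36, SE 0.18). KIF1B was 3.64-fold lower in the fit (log2 -1.86, SE 0.17).

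The smaller differences of KIF5C (log2 -0.98, SE 0.23), KIF3B (-0.92, SE 0.29) and KIF13A (-0.77, SE 0.32) passed in edgeR with adjusted p of 0.000751, 0.00677 and 0.0394, and each lost its call with DESeq2. KIF13B, a motor of polarity proteins, measured 95.5 to 221 CPM in sums and 54.1 to 259 CPM in pools and was not called (log2 0.33, SE 0.22), with a value of -0.21 when no normalization factors were used and a call at 0.82 with DESeq2. KIF16B, an early endosome motor, was not called at 0.59 (SE 0.27, edgeR adjusted p = 0.0581), nor was KIF1C.

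The 2 transport kinesins that were higher in sums were scarce in pools. KIFC3, a minus-end motor of adherens junctions and the Golgi, had 91 counts over the single oocytes, seen in 18 of 29, and 9 counts over the pools, seen in 4 of 11. Its fitted log2 difference of 6.15 (SE 0.99) rests on those few counts in pools, and it entered the comparison through the sums. KIF3C had 51 counts over the single oocytes and 44 over the far deeper pools, with a fitted log2 difference of 3.29 (SE 0.99). For KIFC3 and KIF3C these values are a description.

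In the cilia and other group, 4 of 5 tested members were called higher in sums and 1 lower, beside 35.2% and 32.5% of all genes. Differences between the groups of kinesins were not tested. KIF24 averaged 185 ± 68.4 CPM in sums and 93.3 ± 32.2 CPM in pools, 2.89-fold higher in the fit (log2 1.53, SE 0.22, edgeR adjusted p = 1.31e-06). KIF7 averaged 13.01 ± 3.33 CPM in sums and 1.98 ± 1.94 CPM in pools (log2 3.30, SE 0.52), and KIF12 averaged 2.87 ± 1.82 CPM in sums and 0.548 ± 0.411 CPM in pools (log2 2.95, SE 0.67). KIF27, from the same branch of the family as KIF7, averaged 9.37 ± 2.86 CPM in sums and 102 ± 25.2 CPM in pools (log2 -3.05, SE 0.27).

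KIF26B was 1.92-fold higher in the fit for sums (log2 0.94, SE 0.31, edgeR adjusted p = 0.00952) and lost its call with no normalization factors. Apart from KIF13B, no tested kinesin changed sign between the scalings tried. The summed cumulus and granulosa markers were 23.7 to 43.2 CPM in sums and 88.1 to 219 CPM in pools. Of the 18, 11 had enough counts to be tested between library types, while AMH and AMHR2 were at 0 in both. The part of these markers in the library-type differences was not tested.

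Among the partners, where 35.2% of all genes were higher and 32.5% lower in sums, the 14 spindle partners were 3 higher and 9 lower. Of 14 cargo and adaptor genes 7 were higher and 5 lower, and of 16 dynein and dynactin genes 5 were higher and 5 lower. Differences between these lists were not tested. The adaptor KIFAP3 was lower with KIF3A (log2 -1.82, SE 0.29), whereas the kinesin light chain KLC1 (0.63, SE 0.16) was higher while the heavy chain KIF5B was lower.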

How the data were processed

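RNA of pig metaphase II oocytes was measured in 11 pools and 29 single oocytes. The authors deposited whole-number read counts per gene for each library, 1 table for each library type. FastQC, Trim Galore, TopHat2 2.0.14, edgeR and genome build Sscrofa10.2 are named in the submitters' processing notes, per the labels. The sources used here do not name the counting program, annotation or strand setting. Without strand, reads of a gene and of an antisense partner cannot be told apart. The row that names no gene held 1.045% to 4.75% of counts in pools and 0.6476% to 8.151% in single oocytes and was left out.

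The kinesins were found by symbol. The members and lists were chosen with earlier results of these data known. Values per library (for the normal pools also as lowest, median and highest, or as a range) are given for KIF11, for the 3 members of highest mean CPM among spindle and among transport kinesins in each library type, for the highest in the cilia and other group, and for the 3 of smallest p in each state comparison. CENPE and the 2 partners of smallest p per list and state comparison are named, most partners by fitted values. One partner gene that this rule names is not reported here. Other members shown singly, such as KIF18B, KIF4A, KIF14, KIF7, KIF3C and KIFC3, were chosen after their values were seen.

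Counts were filtered with filterByExpr, scaled by TMM and tested in R 4.3.3 by edgeR 4.0.16 (quasi-likelihood). P values were adjusted by Benjamini-Hochberg over all genes tested, with a threshold of 0.05. States were compared in 5 against 6 pools and in 4 against 3 sums, and library types in 1 model of 4 groups. DESeq2 1.42.0, limma-voom (limma 3.58.1), other scalings and filters, a replicate block, single dates or title letters and leaving out each library were alternatives. The steps were checked on simulated data. Same-numbered sums deviated together, with correlations of 0.2365, 0.3269 and 0.2869, so the numbers were taken to pair the sums. The main fits of the sums leave that pairing out, so their SE and p values do not use it, and the block is given as an alternative. For pools the correlations were -0.2688 for A2, 0.332 for A3, 0.7545 for B2 and 0.1834 for B4, and the codes were not taken to pair them. No libraries of a group agreed within sampling noise, with chi-square per degree of freedom of at least 34.98 in pools and 4.089 in single oocytes. Whether libraries of a group come from separate animals is not stated in the labels. A p value here therefore reflects only how far these libraries vary, and that variation may be technical.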

Additional observations from a re-analysis of the deposited data

Results flagged for a closer look

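In 6 of 81 groups of 4 to 6 libraries, 1 library stood apart from the rest of its group, measured as its gap to the nearest other library over the range of the group. Chance alone gives this in about 1 of 20 groups. The normal pool A3 was apart for 3 motors. KIF20B measured 2652 CPM there, where the other normal pools measured 808.8 to 1333 CPM. KIF5B measured 286.0 CPM in it, with 118.1 to 175.5 CPM in the other normal pools. CENPE measured 791.2 CPM in it, with 214.1 to 343.9 CPM in the others.

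The deficient pool B2 was apart for partner genes. The spindle pole gene NUMA1 measured 19.77 CPM in deficient B2, and 4.608 to 5.939 CPM in the other deficient pools. The dynein light chain DYNLL1 measured 324.9 CPM in deficient B2, and 183.4 to 209.9 CPM in the other deficient pools. In sums, the dynein light intermediate chain DYNC1LI1 measured 4.434 CPM in deficient sum 2 and 0.8507 to 1.225 CPM in the other deficient sums.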

How the results depend on the processing

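The number of kinesins called between states was 0 under every alternative run, in pools, in sums and for the difference between library types. Between library types 22 to 28 kinesins were called. The 22 were of 24 tested with each oocyte as a sample, where 4285 of 10628 genes were higher and 4282 lower. The 28 were of 31 tested without deficient pool A2, where 6255 of 17977 genes were higher and 5800 lower. With the replicate block, 0 kinesins were called in the 8 pools of shared code and 0 of 28 in the 6 sums of shared number. No state difference that changed direction was called. KIF13B in pools was -0.11 with the replicate block and -0.15 in pools titled A. KIF27 was -0.0196 in pools titled B. KIF2C was 0.0776 in pools titled A and ran from -0.28 to 0.0573 with each pool left out, above 0 without normal B2. In sums KIF11 was -0.16 with the replicate block, and KIF3A was 0.25 for oocytes of 22 September. KIF5C in sums was -0.0755 with limma-voom, -0.0719 with each oocyte as a sample, -0.10 with the replicate block added to that and -0.16 for oocytes of 17 September. With each sum left out, KIF5C ran from -0.10 to 0.29 and CENPE from -0.82 to 0.0360, above 0 without normal sum 3. KIF13B between library types was -0.21 with no normalization factors. The cause was not tested. The title letter alternatives, the sums without block and the absence of normalization factors were chosen after seeing the data. Depth limits single oocytes, where KIF11 had a median of 5 counts.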
